A study of Mus musculus with 36 samples.

Results

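Mouse prostate organoids carrying a doxycycline-inducible construct for the FOXA1 mutant R219S were compared with organoids carrying the empty vector (EV), both at day 0. The comparison holds 6 of the 36 libraries of the series, 3 labelled Foxa1 R219S at day 0 and 3 labelled EV at day 0, chosen by their titles. Every line of the series was made from primary mouse prostate organoid culture with a pCW vector, carried a DsRED reporter and was sorted for it, and each construct was then seeded in triplicate and handled as separate replicates. The study compares R219S, wild-type FOXA1 (WT), the deletion FE255del and EV at days 0, 1 and 11, with 500 ng/mL doxycycline as the inducer. The names of the deposited data mark the day 0 samples as grown without doxycycline, so the gap at day 0 is a gap between uninduced lines. Each line stands for 1 construct and its day 0 triplicate came from 1 round of seeding, so p-values measure only the spread between replicate cultures. That spread was estimated in 1 fit over all 36 libraries of the series, not from these 6 alone. The p-values therefore rest on other lines and days too. They cannot separate the construct from anything else by which the lines came to differ before seeding. The strain, age and number of donor animals are not given in the sources used here.

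FOXA1 is a forkhead pioneer factor: it binds its motif in closed chromatin and opens it for other factors. In the prostate it is known for its part in luminal cell identity. The R219S substitution lies in the forkhead DNA-binding domain and is one of the FOXA1 changes recurrent in human prostate cancer.

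Poly(A) RNA was read in strand-preserving libraries, and the deposited values are counts per gene. The 6 totals ran between 61476938 and 102385337 counts, and 18176 of 45232 genes had enough counts to test. The R219S replicate 2 library was the deepest and stood apart from the other R219S libraries. Its counts differed from those of R219S replicates 1 and 3 with chi-square over degrees of freedom of 32.3 and 41.3, against 5.62 between replicates 1 and 3 and 5.21 to 7.09 among the EV libraries. Mitochondrial genes took 1.32% of its counts, against 2.26% and 2.52% in the other R219S libraries and 2.29% to 2.47% in the EV libraries. Counts without this library are given beside many of the results that moved without it. Levels below are CPM, each gene's share of its library's counts scaled by TMM, a trimmed-mean library factor. Changes are log2 fold changes of R219S over EV ± SE from edgeR's quasi-likelihood test, and a gene was called at a Benjamini-Hochberg adjusted p under 0.05 over all genes tested.

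The labels were checked on Foxa1 itself. Foxa1 (chr12:57540628-57546916, minus strand, mm10) had 229, 222 and 235 CPM in the R219S libraries, against 233, 227 and 237 CPM in the EV libraries. The groups overlapped and the change was -0.02 ± 0.06 (edgeR adjusted p = 0.832), so no difference in this count was detectable before induction. The species of the construct's FOXA1 is not given in the sources used here, and whether its transcript counts under the mouse gene was not tested. At day 1 Foxa1 averaged 309 ± 5.11 CPM in R219S and 227 ± 4.99 CPM in EV (SD, n = 3 each, log2 change 0.45, edgeR adjusted p = 1.0e-07). Of its paralogs, Foxa2 had 18 counts over the R219S libraries and 0 counts over the EV libraries. That is 5.6-fold higher if EV is set at a floor of 3 counts over the group. Low counts here are mostly even, as when both reads of a pair are counted, so this ratio is uncertain. Foxa3 was too low to test.

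The cultures read as epithelium in both lines. Beside the counts of called markers below, 13.2% of all genes tested were called higher and 6.92% lower. Basal markers summed to between 13280 and 14160 CPM in R219S and between 13830 and 14250 CPM in EV, and luminal markers to between 9314 and 9450 CPM in R219S and between 9099 and 9309 CPM in EV. Of 18 prostate secretion genes, 5 were at 0 counts in all 6 libraries, Pbsn and Msmb among them, while 5 averaged at least 1 CPM. The list summed to between 1230 and 1272 CPM in R219S and between 1351 and 1386 CPM in EV. Of its 11 tested members, 3 were called lower and none higher, with 2 lower without R219S replicate 3 or EV replicate 2. Summed fibroblast markers reached 2.69 to 3.24 CPM in R219S and 4.13 to 5.07 CPM in EV, with 9 of 15 tested and 1 of them, Col5a1, called lower. Summed endothelial markers reached 7.57 to 8.22 CPM in R219S and 8.41 to 8.78 CPM in EV, and seminal vesicle markers stayed at or under 0.0338 CPM in R219S and 0.0427 CPM in EV. Immune markers summed to 153 to 156 CPM in R219S and 130 to 135 CPM in EV, nearly all of it Cd14, a co-receptor of bacterial lipopolysaccharide. Of 8 immune markers tested, 1 was called higher and none lower, and none was called higher with RLE or total-count scaling. Smooth muscle markers summed to 135 to 145 CPM in R219S and 149 to 159 CPM in EV, mostly Smtn, with none of the 7 tested called. Urothelial markers summed to 113 to 126 CPM in R219S and 138 to 139 CPM in EV, with 3 of 9 tested called lower (Gata3, the uroplakin Upk1b and Krt20) and a median of -0.44. Without R219S replicate 2 the lower count was 1. Neuroendocrine markers summed to 14 to 22.2 CPM in R219S and 25.3 to 38.6 CPM in EV, mostly Eno2, a neuronal enolase and the 1 of 4 tested that was called lower (-0.93, edgeR adjusted p = 0.020), while Insm1 and Neurod1 were at 0. No neuroendocrine marker was called without R219S replicate 2 or 3, without EV replicate 2, or with the compared groups alone. The part of these gaps in the results below was not tested.

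Uninduced R219S organoids differed from EV organoids in many genes by small amounts and in few genes by large ones. Of 18176 genes tested, 3654 (20.1%) were called, 2397 (13.2%) higher and 1257 (6.92%) lower in R219S. The median size among called genes was 0.24 on the log2 scale. The 3 libraries of one line lay wholly above or below the 3 of the other in 7019 genes (38.6%). A change past 2-fold was called in 248 genes (1.36%), 70 (0.385%) higher and 178 (0.979%) lower. Of these 248 genes, 20 had no count in 1 line and only 29 averaged at least 2 CPM over the 6 libraries. The count past 2-fold was 178 without R219S replicate 2, 159 without EV replicate 2 and 56 with a stricter filter on low counts. Among the 29 genes, 7 were higher and 22 lower, with no overlap between lines in any of them. The split by direction depended on the scaling: 65.6% of calls were higher with TMM, against 47.2% with scaling to total counts (1580 higher, 1766 lower). Without R219S replicate 2 the call count was 2547, with 1648 higher. Without EV replicate 2 it was 2091, with 1350 higher and 741 lower.

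The gene furthest from EV was B230334C09Rik, a transcript annotated as antisense (chr3:158067186-158076112, minus strand, mm10). It had 15.5, 15.5 and 13.3 CPM in the R219S libraries, against 0.0427, 0.0705 and 0.0610 CPM in the EV libraries. That is 3287 counts in R219S and 12 counts in EV, a log2 change of 7.95 ± 0.34 (edgeR adjusted p = 3.2e-16). It was near 0 in the other lines too, at 0.0206 CPM in WT and 0.0172 CPM in FE255del, and the direct tests gave log2 changes of 9.53 for R219S over WT and 9.56 for R219S over FE255del (edgeR adjusted p = 2.1e-17 and 1.1e-16). With doxycycline it stayed on in R219S, at 37.5 ± 6.29 CPM at day 1 and 32.5 ± 7.23 CPM at day 11, against 0.0196 ± 0.0170 and 0.0181 ± 0.0157 CPM in EV (SD, n = 3 each). Its annotated span overlaps the end of Lrrc40 (chr3:158036662-158068487, plus strand), a leucine-rich repeat gene on the opposite strand. Lrrc40 averaged 57.9 CPM in R219S and 54.0 CPM in EV and was not called (0.10 ± 0.05, edgeR adjusted p = 0.151). Whether the counting used strand is not given in the sources used here, so reads in the overlap cannot be assigned. The neighbours Srsf11 (-0.13) and Ankrd13c (0.08) were not called either (edgeR adjusted p = 0.620 and 0.176).

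A second locus was low in R219S and lower still in the other FOXA1 lines. Adgrg7, an orphan adhesion G protein-coupled receptor (chr16:56724609-56795855, minus strand, mm10), had 1.98, 3.90 and 2.28 CPM in the R219S libraries, against 15.3, 14.7 and 16.4 CPM in the EV libraries. All R219S libraries lay below all EV libraries, a log2 change of -2.48 ± 0.29 (edgeR adjusted p = 1.8e-06). Tmem45a, a transmembrane protein gene that starts upstream on the same strand (chr16:56805161-56886166) with a gap of 9.31 kb between the genes, had 13.05, 12.84 and 13.03 CPM in R219S, against 30.2, 28.0 and 26.0 CPM in EV (-1.11 ± 0.13, edgeR adjusted p = 6.0e-07). On the other side, Tfg, which acts in transport out of the endoplasmic reticulum and lies 7.16 kb from Adgrg7, averaged 144 CPM in R219S and 136 CPM in EV and was not called (edgeR adjusted p = 0.199). In the lines with WT and FE255del, Adgrg7 averaged 0.565 and 0.522 CPM and Tmem45a 4.86 and 7.11 CPM, and R219S was called higher than each of these lines in both genes. Since these 2 neighbours fell together, the 300 bases around their RefSeq starts (250 before, 50 after, build GRCm38.p6, read along the gene) are printed here, all in lower case.
Adgrg7, chr16:56795809-56796108, minus strand: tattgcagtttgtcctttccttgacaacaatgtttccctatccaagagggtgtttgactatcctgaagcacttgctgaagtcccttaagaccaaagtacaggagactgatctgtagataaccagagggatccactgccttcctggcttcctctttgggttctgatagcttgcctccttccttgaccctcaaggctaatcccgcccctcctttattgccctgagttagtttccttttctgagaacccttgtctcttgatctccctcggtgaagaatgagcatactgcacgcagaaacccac
Tmem45a, chr16:56886114-56886413, minus strand: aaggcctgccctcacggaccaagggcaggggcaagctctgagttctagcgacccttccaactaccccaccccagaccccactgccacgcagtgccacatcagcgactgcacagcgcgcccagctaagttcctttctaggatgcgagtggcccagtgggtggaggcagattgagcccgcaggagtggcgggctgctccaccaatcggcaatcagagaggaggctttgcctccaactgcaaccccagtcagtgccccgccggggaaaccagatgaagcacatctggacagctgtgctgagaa

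The forkhead core TGTTTAC, searched on both strands (reverse complement GTAAACA), is in neither window. Such windows were found for 11958 tested genes and 318 of them (2.66%) hold the core. It is in 33 of 928 windows of genes called lower (3.56%) and in 44 of 1878 windows of genes called higher (2.34%). These shares are a description, and a match is not a bound site. Dnajc6, the auxilin that uncoats clathrin vesicles, and Ect2, a nucleotide exchange factor needed for cytokinesis, were called higher and have the core, in capitals below, 1 time and 2 times.
Dnajc6, chr4:101507726-101508025, plus strand: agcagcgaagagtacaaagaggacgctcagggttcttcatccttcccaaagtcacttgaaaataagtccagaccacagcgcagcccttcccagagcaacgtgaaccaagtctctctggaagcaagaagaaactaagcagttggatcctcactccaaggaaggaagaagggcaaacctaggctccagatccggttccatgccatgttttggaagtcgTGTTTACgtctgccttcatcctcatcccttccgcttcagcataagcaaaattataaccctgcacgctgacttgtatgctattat
Ect2, chr3:27153829-27154128, minus strand: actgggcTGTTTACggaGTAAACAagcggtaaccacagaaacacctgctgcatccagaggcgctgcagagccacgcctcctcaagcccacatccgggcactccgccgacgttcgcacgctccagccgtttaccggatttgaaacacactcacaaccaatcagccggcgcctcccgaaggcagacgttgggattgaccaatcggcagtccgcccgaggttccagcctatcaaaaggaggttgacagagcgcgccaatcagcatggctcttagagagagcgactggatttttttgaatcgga

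Among genes of at least 2 CPM, the largest gains held enzymes, channels, transporters and signalling proteins. Decr1, a mitochondrial reductase needed to oxidise unsaturated fatty acids, had 19.59, 20.10 and 20.01 CPM in R219S, against 5.68, 6.80 and 6.35 CPM in EV (1.66 ± 0.09, edgeR adjusted p = 2.0e-15). AI506816 had 144, 154 and 157 CPM in R219S, against 66.7, 64.0 and 73.0 CPM in EV (1.16 ± 0.06, edgeR adjusted p = 1.4e-15). Decr1 was chosen under a rule of no overlap between lines, and the groups did not overlap in AI506816 either. Plekhb1, a pleckstrin-homology protein, had 7.29, 6.71 and 7.05 CPM in R219S, against 2.95, 2.89 and 2.93 CPM in EV (1.26 ± 0.13). Cacna2d1, an auxiliary subunit of voltage-gated calcium channels, had 4.85, 4.77 and 4.43 CPM in R219S, against 2.12, 1.83 and 2.00 CPM in EV (1.24 ± 0.12). Rhoj, a small GTPase, changed by 1.29 and Cd34, a sialomucin known from blood and vessel progenitors, by 1.10. The other gains among the 15 largest ran between 0.84 and 0.99. They included the efflux pump Abcg2 (0.97), the chloride transporter Slc26a9 (0.97), the G protein regulator Rgs4 (0.94), the growth factor Tgfb3 (0.88), Dnajc6 (0.88), the integrin activator Fermt2 (0.86) and the platelet chemokine Ppbp (0.85). Ppbp had 63.0, 55.0 and 66.0 CPM in R219S, against 35.5, 29.9 and 36.8 CPM in EV, and its call was lost without EV replicate 2. Dpp4, the dipeptidyl peptidase used as a surface marker in the luminal list, had 1.76, 1.88 and 1.62 CPM in R219S, against 0.370, 0.578 and 0.503 CPM in EV (1.85 ± 0.25). Emx2, a homeobox factor of the developing urogenital tract and cortex that was picked after its values were seen, had 0.777, 0.792 and 0.665 CPM in R219S, against 0.114, 0.0282 and 0.0305 CPM in EV (3.65 ± 0.40, edgeR adjusted p = 1.1e-07).

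The largest losses held several genes of surface and extracellular proteins. 5430419D17Rik, a protein-coding gene with no standard symbol that was picked after its values were seen, had 2.58, 3.92 and 4.90 CPM in R219S, against 17.1, 19.4 and 16.5 CPM in EV (-2.21 ± 0.21, edgeR adjusted p = 1.1e-07). Dach2, a dachshund-family nuclear factor, had 8.34, 8.84 and 7.17 CPM in R219S, against 22.3, 22.6 and 19.8 CPM in EV (-1.41 ± 0.10). Both were low in all 3 R219S libraries, which their choice favoured, since Dach2 was chosen under a rule of no overlap between lines. Ly6d, a surface protein that marks castration-resistant luminal progenitors in mouse prostate, had 21.8, 20.4 and 21.1 CPM in R219S, against 47.3, 55.1 and 48.9 CPM in EV (-1.26 ± 0.21). Fxyd4, a regulator of the sodium pump, had 31.8, 29.2 and 29.1 CPM in R219S, against 68.7, 70.1 and 61.4 CPM in EV (-1.15 ± 0.13). Wif1, a secreted inhibitor that binds Wnt proteins, had 13.5, 15.5 and 14.7 CPM in R219S, against 28.7, 32.3 and 27.3 CPM in EV (-1.01 ± 0.16). Ndufa4l2, a hypoxia-induced mitochondrial protein, changed by -1.34, the axon guidance receptor Robo2 by -1.27, the class I-like surface protein Mill1 by -1.22 and the BMP antagonist Chrd by -1.16. The other members of the 15 largest losses ran between -1.11 and -1.05: Acrbp, the nucleoside transporter Slc28a3, the kallikrein Klk1b27, the cornified-envelope gene Lce6a, the receptor partner Ramp1 and the prostaglandin-degrading enzyme Hpgd. Acrbp lost its call without R219S replicate 2. Epha3, an ephrin receptor also picked after its values were seen, had 0.0338, 0.146 and 0.242 CPM in R219S, against 1.425, 1.495 and 1.280 CPM in EV (-3.27 ± 0.47).

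**Figure D1:**
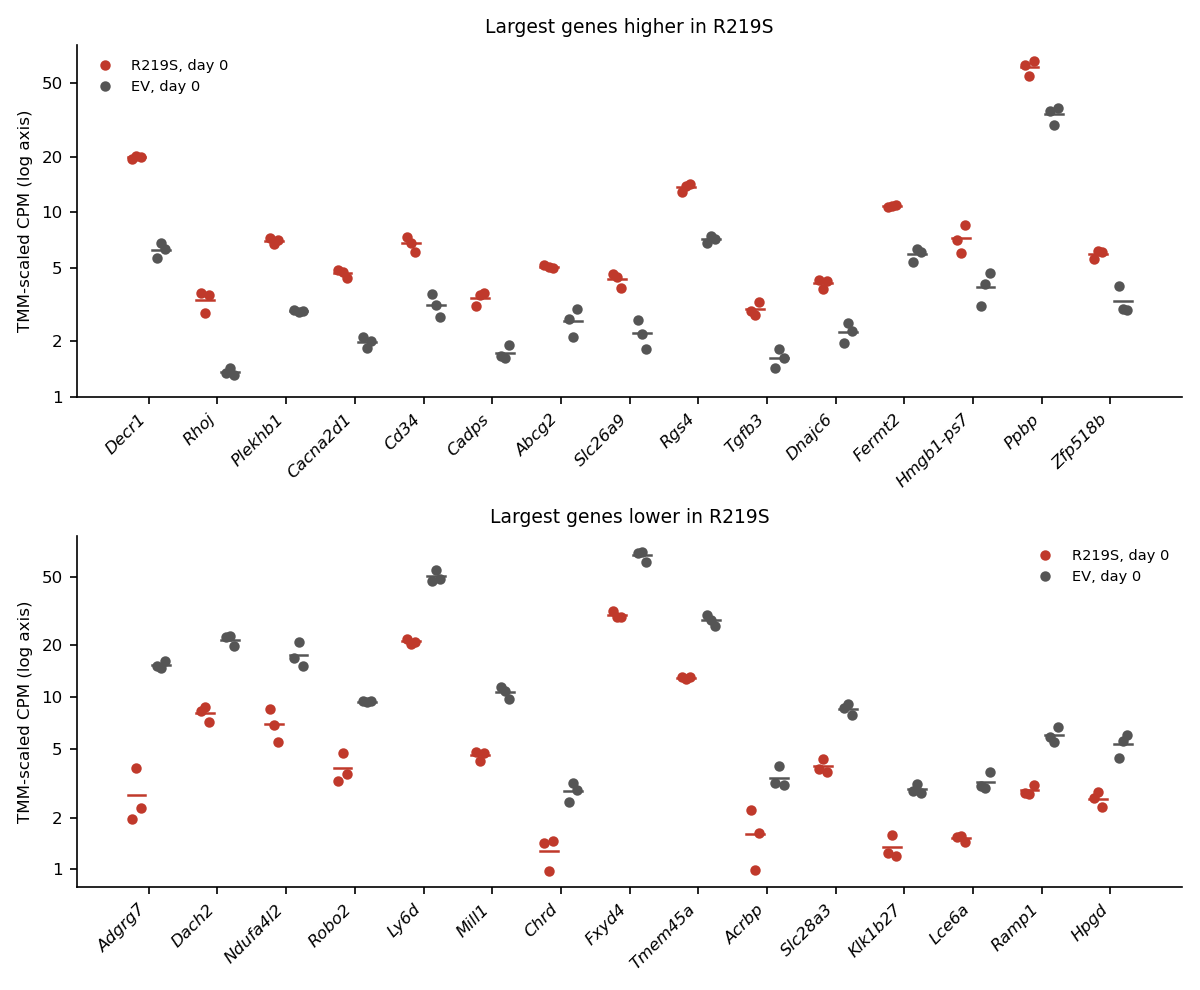
Level of each of the 15 largest gains and 15 largest losses among called genes of at least 2 CPM, in TMM-scaled CPM on a log axis. Points are the 3 R219S libraries (left) and the 3 EV libraries (right) of day 0 and the bar is their mean. Genes were chosen to show no overlap between the lines, so the plot shows their levels and spread, from Decr1 at 19.6 to 20.1 CPM in R219S and 5.68 to 6.80 CPM in EV to Adgrg7 at 1.98 to 3.90 CPM in R219S and 14.7 to 16.4 CPM in EV.

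Genes of DNA replication were higher in R219S, each by a small amount. Of 40 S phase genes tested, 36 were called higher and none lower, with a median log2 change of 0.25 beside 0.01 over all genes tested. Cdc6, which loads the replicative helicase, had 51.0, 54.0 and 58.0 CPM in R219S, against 41.0, 40.7 and 41.0 CPM in EV (0.41 ± 0.07, edgeR adjusted p = 1.1e-04). Tk1, the thymidine kinase of S phase, had 118, 112 and 120 CPM in R219S, against 90.8, 92.7 and 93.1 CPM in EV (0.34 ± 0.06). All 3 R219S libraries were above all EV libraries in both genes. Members named from the lists, here and below, were mostly picked by the smallest p in this same comparison. That choice favours libraries that do not overlap, so the separation is no added support. Over all genes tested 38.6% did not overlap. Mcm6, a subunit of the helicase, changed by 0.24 and Rpa2, of the single-strand binding complex, by 0.28. The members not called were Pold1, Slbp, E2f1 and Ccne1. With scaling to total counts 25 of 40 were called higher, without R219S replicate 2 again 25, and without EV replicate 2 the count was 22.

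G2 and M phase genes gave 40 of 56 called higher and none lower, with a median of 0.22. Nek2, a kinase of centrosome separation, had 101.7, 105.5 and 104.3 CPM in R219S, against 70.9, 72.0 and 72.6 CPM in EV (0.53 ± 0.07, edgeR adjusted p = 1.2e-06), and stood clear of EV. Ect2 had 207, 225 and 222 CPM in R219S, against 185, 168 and 182 CPM in EV (0.29 ± 0.06). The mitotic motor Kif11 changed by 0.30 and the spindle protein Hmmr by 0.26. Mki67, the proliferation antigen, was not called (0.13, edgeR adjusted p = 0.272). The count was 20 of 56 without R219S replicate 2, 19 without EV replicate 2, and 25 with scaling to total counts. Cdkn1b, the cyclin-dependent kinase inhibitor p27, was lower, at 172, 165 and 169 CPM in R219S, against 193, 200 and 189 CPM in EV (-0.20 ± 0.05, edgeR adjusted p = 0.005). Of the list of kinase inhibitors and G1 cyclins, 7 of 16 were called higher, among them Ccnd1 and Ccnd2, and 1 lower. The higher count was 1 with scaling to total counts, 1 without R219S replicate 2 and 0 without EV replicate 2.

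Ribosome biogenesis was the group that depended least on the setting. Of 32 genes of ribosome making and Myc, 27 were called higher and none lower, with a median of 0.29. The higher count stayed at 26 or 27 under each of the 13 alternatives. Mybbp1a, a nucleolar partner of Myb in ribosomal RNA processing, had 401, 422 and 408 CPM in R219S, against 308, 299 and 322 CPM in EV (0.40 ± 0.04, edgeR adjusted p = 1.8e-08). Srm, the spermidine synthase, had 67.4, 65.7 and 74.9 CPM in R219S, against 50.9, 46.6 and 56.7 CPM in EV (0.43 ± 0.06). Neither gene's groups overlapped. The RNA helicase Ddx21 changed by 0.32, the pre-ribosome factor Bop1 by 0.35 and the mitochondrial chaperone Hspd1 by 0.31. Myc itself had 177, 170 and 182 CPM in R219S, against 166, 164 and 166 CPM in EV, and was not called (0.09, edgeR adjusted p = 0.113); Mycn, Mycl, Nop56 and Ldha were the other members not called. Cytosolic ribosomal protein genes gave 6 of 74 called higher, below the 13.2% of all genes, and none lower. Their changes were small but mostly upward, with 71 positive and 3 negative and a median of 0.09.

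Energy genes moved in opposite directions by pathway. Of 55 nuclear genes of the respiratory chain, 31 were called higher and none lower, with a median of 0.16. Atp5g1, for the rotor ring of ATP synthase, had 71.5, 66.3 and 79.4 CPM in R219S, against 49.0, 53.7 and 56.7 CPM in EV (0.45 ± 0.07, edgeR adjusted p = 2.1e-05). Cyc1, cytochrome c1, changed by 0.28, Sdhb, of succinate dehydrogenase, by 0.26 and Ndufs1, of complex I, by 0.21. The mitochondrial genome's own genes did not share that direction: of 24 tested, 1 was called higher and 5 lower, with a median of -0.38. That median was -0.13 without R219S replicate 2, the library with the low mitochondrial share, with 1 gene higher and 2 lower of 25 tested. Leaving out each other library gave medians between -0.52 and -0.26, and the lower count was 1 without EV replicate 2 and 2 without EV replicate 1 or 3. The count of 31 was 19 without R219S replicate 2, 14 without R219S replicate 3, 10 without EV replicate 2 and 18 without EV replicate 1. Of 34 glycolysis and hypoxia genes, 21 were called lower and 1 higher, with a median of -0.24. Ankrd37, a target of the hypoxia factor HIF, had 28.5, 25.1 and 27.9 CPM in R219S, against 44.8, 40.8 and 39.4 CPM in EV (-0.62 ± 0.09, edgeR adjusted p = 2.7e-05). Slc2a1, the main glucose transporter of epithelium, had 285, 285 and 263 CPM in R219S, against 351, 353 and 327 CPM in EV (-0.31 ± 0.06). Vegfa, the vascular growth factor induced by hypoxia, had 91.3, 72.5 and 74.0 CPM in R219S, against 130, 134 and 105 CPM in EV (-0.64 ± 0.13). R219S lay below EV in all of them. Hexokinase Hk2 (-0.30), the bisphosphatase-kinase Pfkfb3 (-0.33), aldolase Aldoc (-0.33) and Pdk1, which inhibits pyruvate dehydrogenase (-0.27), were called lower too. Slc2a3, another glucose transporter, was the member called higher, at 0.169, 0.104 and 0.242 CPM in R219S, against 0.0570, 0.0141 and 0.0610 CPM in EV, and was not called without R219S replicate 3 or EV replicate 2. The lower count ran between 15 and 24 under the alternatives.

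**Figure D2:**
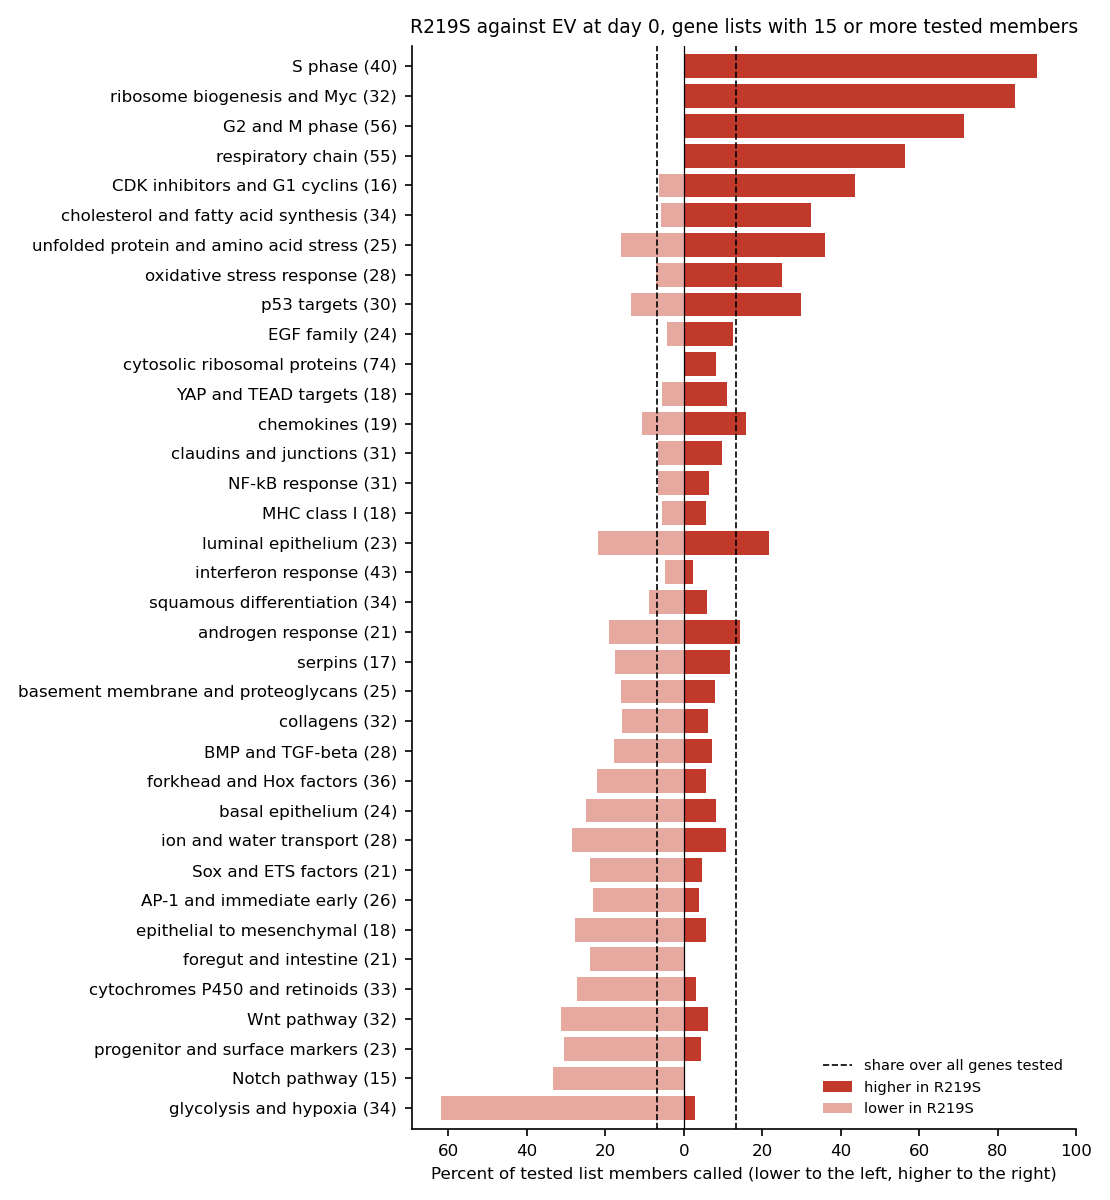
Percent of the tested members of each gene list called lower (left) or higher (right) in R219S than in EV at day 0, for lists with at least 15 tested members. Dashed lines mark the shares over all genes tested, 6.92% lower and 13.2% higher. S phase (36 of 40 higher), ribosome biogenesis (27 of 32 higher), G2 and M phase (40 of 56 higher) and glycolysis (21 of 34 lower) lie well past them.

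The summed picture per library shows how the replicates sat. A list score is the mean over members of the log2 CPM (with 0.5 added) less its mean over the 6 libraries. The S phase score was 0.08, 0.13 and 0.16 in R219S replicates 1, 2 and 3, against -0.15, -0.17 and -0.06 in the EV replicates. The ribosome score was 0.10, 0.15 and 0.16 in R219S, against -0.14, -0.19 and -0.08 in EV. The glycolysis score was -0.10, -0.07 and -0.21 in R219S, against 0.17, 0.17 and 0.04 in EV. EV replicate 3 was the nearest to R219S in each of the 3 scores, and R219S replicate 2 was in none of the 3 the R219S library furthest from EV. For G2 and M phase it was, with scores of 0.06, 0.15 and 0.12 in R219S, against -0.11, -0.14 and -0.07 in EV.

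**Figure D3:**
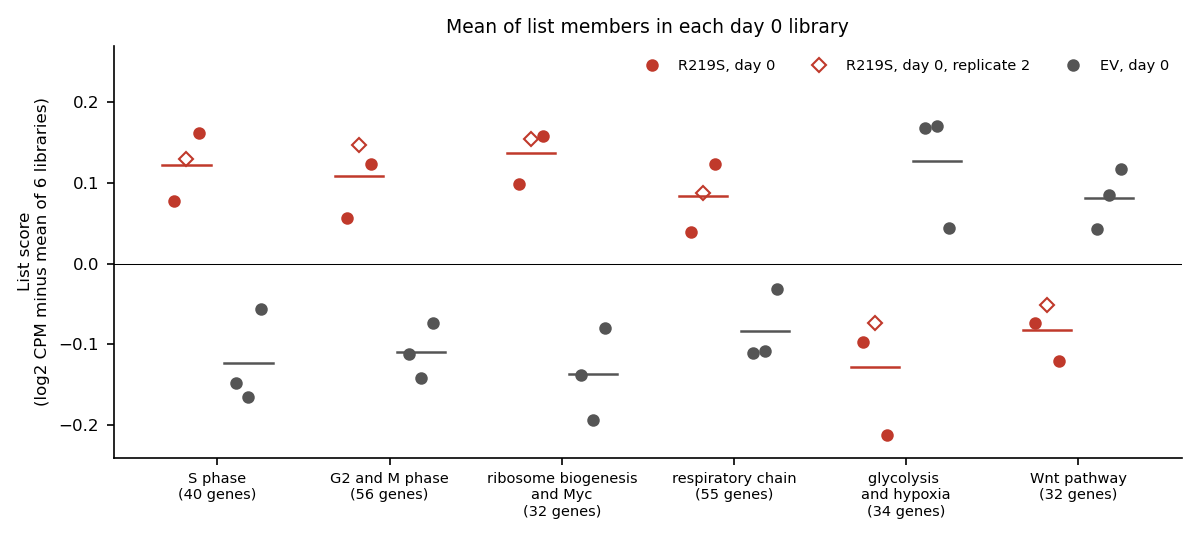
List score (mean log2 CPM of the members less the mean over the 6 libraries) in each day 0 library, R219S left and EV right, for 6 gene lists. Points are libraries, with R219S replicate 2 as an open diamond. S phase runs from 0.08 to 0.16 in R219S and from -0.17 to -0.06 in EV, and glycolysis from -0.21 to -0.07 in R219S and from 0.04 to 0.17 in EV.

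Lineage genes changed in both directions. Of 24 basal markers, 6 were called lower and 2 higher, beside 6.92% lower and 13.2% higher over all genes tested. Trp63, the master factor of basal cells, had 219.3, 240.3 and 218.0 CPM in R219S, against 275.9, 273.0 and 273.6 CPM in EV (-0.28 ± 0.07, edgeR adjusted p = 0.002). Snai2, a zinc finger factor of basal epithelium, had 71.6, 72.8 and 75.5 CPM in R219S, against 94.9, 95.9 and 95.2 CPM in EV (-0.38 ± 0.05). Krt15 (-0.34), the hemidesmosome collagen Col17a1 (-0.31), the transcription factor Bcl11b (-0.77) and Cav1 (-0.23) were also lower, and Krt17 (0.27) and the integrin Itga3 (0.24) higher. The call of Cav1 was lost without R219S replicate 3 or EV replicate 1, and that of Krt17 without EV replicate 2. The main basal keratins were not called, Krt5 at -0.05 and Krt14 at 0.08 (edgeR adjusted p = 0.565 and 0.427).

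Of 23 luminal markers, 5 were called higher and 5 lower, with 3 lower when R219S replicate 1 or 3 or any EV replicate was left out. Over all genes tested 13.2% were higher and 6.92% lower. Krt18 had 842, 884 and 833 CPM in R219S, against 692, 658 and 705 CPM in EV (0.32 ± 0.04, edgeR adjusted p = 3.1e-06), while its partner Krt8 was not called (-0.05, edgeR adjusted p = 0.673). Krt7 (0.17), Cd24a (0.18), the claudin Cldn7 (0.24) and Dpp4 were the other higher members. Ly6d, the ETS factor Elf3 (-0.34), the protease Tmprss2 (-0.25), Prom1 (-0.32) and Tspan1 were lower. The call of Cd24a was lost without EV replicate 2, that of Tspan1 with any of the 6 libraries left out, and that of Prom1 with any but R219S replicate 2 left out. The prostate homeobox gene Hoxb13 was not called, at 0.01. Vim, an intermediate filament of mesenchyme, had 4.390, 4.167 and 3.598 CPM in R219S, against 3.08, 2.88 and 2.53 CPM in EV (0.52 ± 0.18, edgeR adjusted p = 0.044). That call was lost under both other scalings, with no filter, and without R219S replicate 1 or 2 or any EV replicate. Cdh1, the epithelial cadherin, was not called.

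The Wnt and Notch lists held more losses than gains. Over all genes tested 13.2% were called higher and 6.92% lower. The EGF family list was near these shares, with 3 of 24 called higher and 1 lower. In the Wnt list, 10 of 32 were called lower and 2 higher. The lower members were the ligands Wnt4, Wnt5a, Wnt5b, Wnt6 and Wnt11, the feedback genes Axin2 and Rnf43, the inhibitors Wif1 and Sostdc1, and the factor Sp5. Axin2 had 76.0, 79.9 and 81.8 CPM in R219S, against 98.1, 95.3 and 99.6 CPM in EV (-0.30 ± 0.05, edgeR adjusted p = 8.4e-05). Sostdc1, a secreted antagonist of BMP and Wnt signals, had 0.540, 0.573 and 0.605 CPM in R219S, against 2.88, 3.22 and 3.63 CPM in EV (-2.49 ± 0.19, edgeR adjusted p = 2.7e-11). Both sat wholly below EV. Sfrp1, another secreted inhibitor, was higher (0.42 ± 0.08), as was Ccnd1 (0.17). Without R219S replicate 2 the lower count was 6, and without replicate 3 again 6. The calls of Wnt4, Wnt5b, Wnt6, Wnt11 and Sp5 were each lost without at least 3 of the 6 libraries in turn, and that of Ccnd1 without EV replicate 2. In the Notch list, 5 of 15 were lower and none higher: the ligands Jag1 (-0.34), Jag2 (-0.21) and Dll1 (-0.28) and the targets Hes1 (-0.26) and Hey1 (-0.71), the last not called without R219S replicate 2. Hes1 had 82.6, 77.5 and 77.7 CPM in R219S, against 98.3, 94.2 and 92.5 CPM in EV. The median over the Notch list was near 0, at -0.013.

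Transport and retinoid genes leaned lower as well. Of 28 ion and water transport genes, 8 were lower and 3 higher. Scnn1a, a subunit of the epithelial sodium channel, had 15.8, 16.4 and 15.8 CPM in R219S, against 27.6, 24.6 and 28.8 CPM in EV (-0.75 ± 0.10, edgeR adjusted p = 3.9e-06). Slc34a2, a phosphate transporter, changed by -0.92 and the chloride channel Cftr by -1.01. Of 33 cytochrome P450 and retinoid genes, 9 were lower and 1, the retinoic acid receptor Rarb (0.36), higher. Cyp27a1, the sterol 27-hydroxylase, had 12.2, 9.05 and 11.3 CPM in R219S, against 18.8, 22.1 and 21.4 CPM in EV (-0.95 ± 0.14). R219S was low in every library of both genes. The retinaldehyde dehydrogenases Aldh1a3 (-0.60) and Aldh1a1 (-0.39) and the retinal reductase Dhrs3 (-0.41) were lower. Of 34 genes of cholesterol and fatty acid synthesis, 11 were higher (7 without R219S replicate 2 or EV replicate 2) and 2 lower, with Fdft1, the squalene synthase, at 0.36 and Acly, the ATP citrate lyase, at 0.29. Of 30 p53 targets 9 were higher (5 without EV replicate 2) and 4 lower, with Ccng1 at 0.33. Of 36 forkhead and Hox genes, 8 were lower (4 without EV replicate 2, 5 without R219S replicate 3, 13 with total-count scaling) and 2 higher. The shares over all genes tested were 13.2% higher and 6.92% lower. Hoxa13, of the distal urogenital tract, changed by -0.31.

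The R219S line was then set beside the other uninduced lines, to see which gaps were its own. Against WT, 7231 genes (39.8%) were called, 23.8% of those tested higher and 16.0% lower in R219S. Against FE255del it was 2219 (12.2%), 7.3% higher and 4.91% lower; both comparisons use the same R219S libraries as the comparison with EV. R219S stood outermost of the 4 lines, called in the same direction against WT and FE255del, in B230334C09Rik, 5430419D17Rik, AI506816, Abcg2, Slc26a9, Ppbp, Krt18, Wif1, Dpp4, Mybbp1a, Ddx21 and Ly6c1 among the genes named. Abcg2 averaged 5.06 CPM in R219S, 2.08 in WT, 2.25 in FE255del and 2.58 in EV, with direct log2 changes of 1.28 over WT and 1.17 over FE255del. 5430419D17Rik averaged 31.3 CPM in WT and 17.3 CPM in FE255del, and R219S differed from them by -3.03 and -2.18 (edgeR adjusted p = 2.2e-11 and 5.2e-08). In both genes the R219S libraries lay alone at their end. Other gaps lay between EV and the other FOXA1 lines. Decr1 averaged 19.9 CPM in R219S, 41.9 in WT, 35.4 in FE255del and 6.28 in EV, and R219S was called lower than WT (-1.07) and FE255del (-0.83). Adgrg7, Tmem45a, Sostdc1, Dach2, Ly6d, Mill1 and Cacna2d1 had the same intermediate place, each called against WT and FE255del. Rhoj, Rgs4 and Cd34 were not called between R219S and FE255del.

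The proliferation lists did not place R219S apart from FE255del. Of the 40 S phase genes, 1 was called higher than in FE255del and none lower, with a median of 0.07, and of the 56 G2 and M genes 1 was higher and none lower. Against WT, 36 of 40 S phase genes were called higher and none lower, and 52 of 56 G2 and M genes higher and 1 lower. WT and FE255del differed from EV in 4132 genes (22.7%, with 9.9% higher and 12.8% lower) and 3776 genes (20.8%, with 11.1% higher and 9.72% lower). The median S phase change over EV was 0.25 in R219S, -0.03 in WT and 0.20 in FE255del, and these 3 comparisons share the EV libraries. For the glycolysis list the medians over EV were -0.24 in R219S, 0.05 in WT and -0.10 in FE255del. Of its 34 genes, R219S was called lower than FE255del in 9 and higher in none, and lower than WT in 24 and higher in 1. Of the 32 ribosome biogenesis genes, 24 in FE255del and 2 in WT were called higher than EV, with medians of 0.21 and 0.01, and none lower. In R219S 6 of the 32 were called higher than in FE255del and none lower. Of the 55 respiratory chain genes, 26 were called higher than EV in FE255del and none lower. None of the 55 was called between R219S and FE255del. The basal and Wnt losses were not particular to R219S. Of 24 basal markers, 13 were called lower than EV and 1 higher in each of WT and FE255del. Of 32 Wnt genes, 13 were lower and 4 higher than EV in WT, and 11 lower and 3 higher in FE255del. The Wnt medians over EV were -0.07 in R219S, -0.20 in WT and -0.22 in FE255del.

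**Figure D4:**
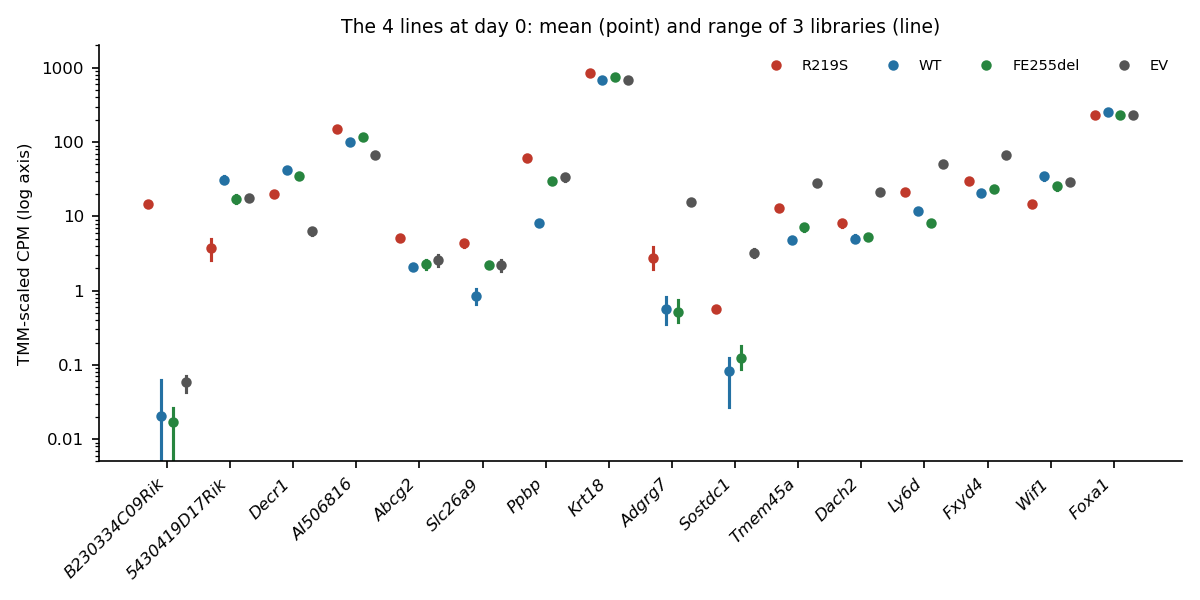
Mean level (points) and range of 3 libraries (bars) in the uninduced lines R219S, WT, FE255del and EV for 16 genes, in CPM on a log axis cut at 0.005, with libraries at 0 drawn at the axis. B230334C09Rik is at 14.8 CPM in R219S and at or under 0.0581 CPM in the other lines, while Adgrg7 at 2.72 CPM in R219S lies between FE255del at 0.522 CPM and EV at 15.4 CPM.

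With doxycycline the gaps of day 0 were set against those of days 1 and 11, which use other libraries of the same lines. R219S and EV differed in 8812 genes (48.5%, with 23.2% higher and 25.3% lower in R219S) at day 1 and 5833 (32.1%, with 17.7% higher and 14.4% lower) at day 11. The change in the gap was itself called in 7153 genes (39.4%, upward 16.1% and downward 23.3%) for day 1 against day 0 and in 4931 (27.1%, upward 12.4% and downward 14.7%) for day 11. Of the 2397 genes higher at day 0, 855 were called higher at day 1 and 554 lower, and at day 11 555 higher and 371 lower. The 855 are 20.3% of all genes called higher at day 1. Of the 1257 genes lower at day 0, 736 were called lower at day 1 and 188 higher, and at day 11 473 lower and 225 higher. The 736 are 16.0% of all genes called lower at day 1. Some gaps widened. Cacna2d1 averaged 45.9 ± 3.69 CPM in R219S and 1.64 ± 0.23 CPM in EV at day 1, and Dach2 2.37 ± 0.24 CPM in R219S and 22.5 ± 0.40 CPM in EV (SD, n = 3 each). Others turned round. Rgs4, higher in R219S at day 0, averaged 1.49 ± 0.17 CPM in R219S and 6.36 ± 0.71 CPM in EV at day 1, and Krt18 384 ± 4.51 CPM in R219S and 609 ± 19.8 CPM in EV. Ramp1, lower in R219S at day 0, averaged 10.8 ± 0.78 CPM in R219S and 6.71 ± 0.44 CPM in EV at day 1. Wif1 averaged 293.1 ± 63.4 CPM in R219S and 102.5 ± 4.68 CPM in EV at day 11. Vim averaged 34.4 ± 3.87 CPM in R219S and 1.89 ± 0.14 CPM in EV at day 1, a gap of 4.18 against 0.52 at day 0. S phase genes ran the other way with doxycycline: 2 of 40 were higher and 18 lower at day 1, and 1 higher and 20 lower at day 11. The change in the gap was called negative for 29 of them at day 1 and 33 at day 11, and positive for none. Adgrg7 had a gap of -3.25 at day 1 and -2.52 at day 11, and the change from day 0 was called at neither day (edgeR adjusted p = 0.145 and 0.984).

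**Figure D5:**
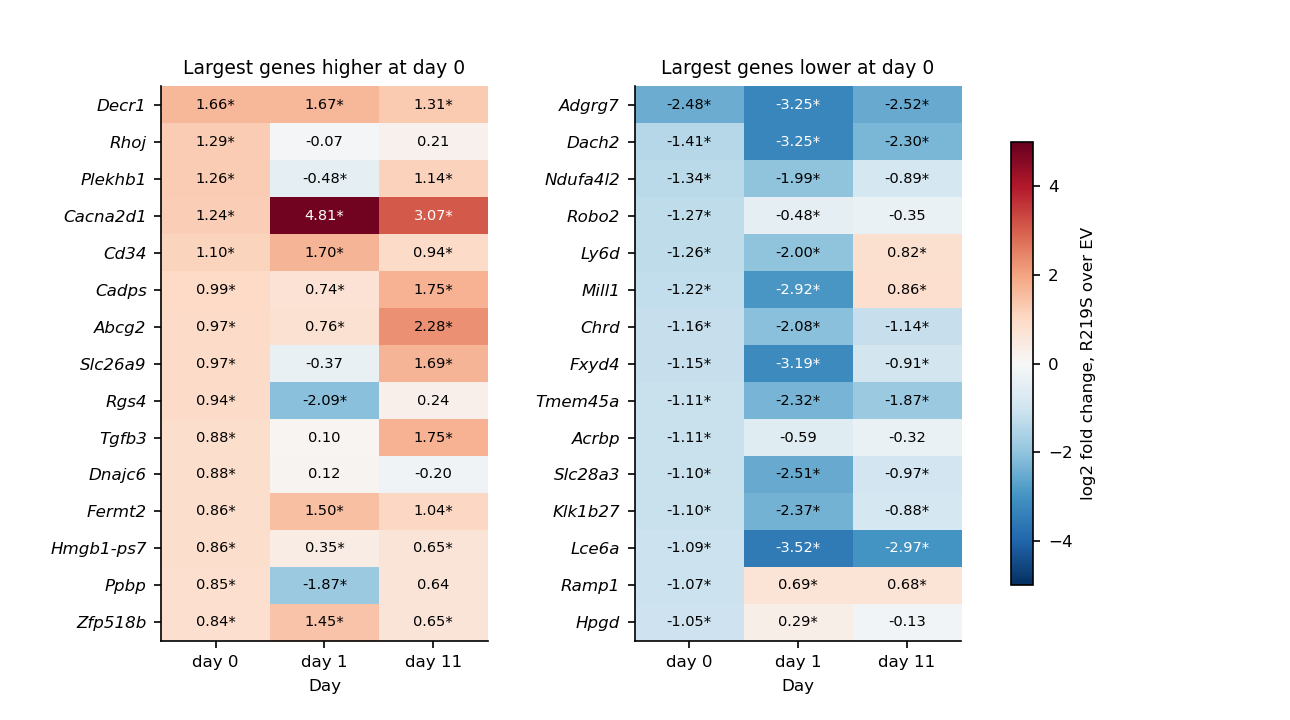
Log2 fold change of R219S over EV at days 0, 1 and 11 for genes with large gaps at day 0, as colour (red higher, blue lower in R219S), with an asterisk where the edgeR adjusted p is under 0.05. Decr1 is at 1.66, 1.67 and 1.31 and Adgrg7 at -2.48, -3.25 and -2.52, while Rgs4 goes through 0.94, -2.09 and 0.24.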

How the data were processed

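The values used are expected counts per gene, deposited by the authors 1 file per library; they lie within 3.0e-09 of whole numbers and were rounded. STAR 2.4.2a, featureCounts 1.4.3 and mm10 are named in the submitters' processing notes without roles, and the annotation release and strand setting are not given in the sources used here. Low counts are mostly even (68.2% to 70.4% of values between 1 and 20), as when both reads of a pair are counted, so floors cover counting error only.

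Samples were grouped by title. Gene positions come from GENCODE M21 (GRCm38). All 36 libraries entered 1 edgeR 4.0.16 quasi-likelihood fit (robust, R 4.3.3) of 12 group means, with filterByExpr, TMM and Benjamini-Hochberg adjustment within each comparison. SE is the absolute log2 change divided by the root of F. The common biological coefficient of variation was 0.0695 with 24 residual degrees of freedom. The fitting was tested on simulated data.

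The genes named are a preset set, the 15 largest called changes each way at 2 CPM or more with no overlap between lines (predicted names left out), the 5 most abundant past 2-fold each way, up to 6 members of each list by p, and members needed for a count. The members and lists were chosen with earlier results of these data known, so lists are given as counts and medians with no test. Alternatives were RLE and total-count scaling, no filter, a filter of 1 CPM in 3 libraries, the compared groups alone, DESeq2 1.42.0, a replicate block and each library left out.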

Additional observations from a re-analysis of the deposited data

Results flagged for a closer look

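For the genes named above, the gap between R219S and EV was tested for a change between day 0 and each later day (edgeR interaction term of the same fit, adjusted p under 0.05 for every value here). The values are the later log2 change of R219S over EV minus that at day 0, over 3 libraries per line and day. The gaps at days 1 and 11 are both set against the same day 0 libraries. Many of these genes were chosen for large gaps in those day 0 libraries. That choice by itself favours smaller gaps later, so narrowing cannot be told apart from it.

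At day 1 the gap had widened for the cytoskeletal and adhesion genes Vim (3.67) and Fermt2 (0.64), the channel subunit Cacna2d1 (3.57), Zfp518b (0.60) and B230334C09Rik (2.84), all higher in R219S. For B230334C09Rik the EV level was near 0 at both days (0.0581 CPM at day 0), so the size of its change is uncertain (edgeR adjusted p = 0.039). The gap had widened on the low side for Dach2 (-1.84), Ly6d (-0.74), Mill1 (-1.70), Chrd (-0.92), Fxyd4 (-2.04), Tmem45a (-1.21), Slc28a3 (-1.41), Klk1b27 (-1.27) and Lce6a (-2.43). The day 1 estimate had the other sign for Trp63 (0.40), Krt18 (-0.98), Rhoj (-1.36), Plekhb1 (-1.74), Slc26a9 (-1.34), Rgs4 (-3.03), Ppbp (-2.71), Ramp1 (1.76) and Hpgd (1.35), and not all of these day 1 gaps were called themselves. It had narrowed for Tgfb3 (-0.79), Dnajc6 (-0.76), Robo2 (0.79), AI506816 (-0.47) and Wif1 (0.71).

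At day 11 the gap was wider than at day 0 for Vim (4.11), Cacna2d1 (1.83), Cadps (0.76), Abcg2 (1.31) and Tgfb3 (0.87), higher in R219S, and for Dach2 (-0.90), Tmem45a (-0.76) and Lce6a (-1.88), lower in R219S. The estimate had the other sign for Trp63 (0.67), Dnajc6 (-1.07), Ly6d (2.08), Mill1 (2.07), Ramp1 (1.75) and Wif1 (2.53). It had narrowed for Krt18 (-0.30), Decr1 (-0.35), Rhoj (-1.07), Rgs4 (-0.71), Robo2 (0.92), Hpgd (0.92) and AI506816 (-0.48).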

How the results depend on the processing

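No named called gene changed sign under the 13 alternatives, but with total-count scaling the balance of calls turned to 1580 higher and 1766 lower. Of 228 named called genes, 161 kept their call under all of them, as did 31 of the 33 largest and most abundant, the exceptions being Ppbp and Acrbp. List medians near 0 changed sign in some settings, among them Notch (-0.11 without R219S replicate 2, 0.03 without R219S replicate 3). With libraries left out in turn, calls of R219S against EV at day 0 ran between 2091 and 3512 (higher 1350 to 2382, lower 741 to 1130), each lowest without EV replicate 2, and calls past 2-fold between 159 and 278. With the stricter filter 56 were past 2-fold. S phase genes called higher ran between 22 and 35, G2 and M genes between 19 and 40, respiratory chain genes between 10 and 36, and glycolysis genes called lower between 15 and 22. With no low-count filter 24 G2 and M genes and 18 respiratory genes were higher, and with total-count scaling 25 G2 and M genes. Against FE255del the calls ran between 1470 and 1756 with a library left out (higher 752 to 1059), lowest without FE255del replicate 1, with 848 higher without R219S replicate 2 and 845 higher with no filter. In a fit of the compared groups alone, day 11 gave 3817 calls (2124 higher, 1693 lower) and 1618 genes whose gap moved down by day 11. The cause of these shifts was not tested. With the replicate block 3848 genes were called at day 0. Same-numbered R219S and EV libraries had correlations of -0.089, -0.161 and 0.029, against at most 0.192 for unlike numbers. For R219S and WT the same-numbered values were 0.168, -0.217 and -0.048, against at most 0.29. No pairing by number was detected in either set, which does not show that the libraries are unpaired. Same-numbered R219S and FE255del libraries had correlations of 0.375, 0.464 and 0.062, against at most 0.135 for unlike numbers. What these libraries share was not tested. With the replicate block 2343 genes were called between R219S and FE255del. Genes near the floor of 3 counts are limited by depth.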
